A study of Mus musculus with 2 samples.

Results

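Mir144, Mir451a, Mir451b and Mir486 are 4 microRNA genes chosen by their GENCODE M21 symbols, out of 2202 microRNA genes counted in small RNA libraries of mouse calf muscle. Mir144 and Mir451a are known from red cells, Mir451b lies on the other strand of Mir451a, and Mir486 is made in red cells and in muscle. The libraries came from total RNA of the gastrocnemius, which lies in the calf, and the mice were B6CASTF1/J females at 36 days of age with no treatment named. Strain B6CASTF1/J is the F1 cross of C57BL/6 with CAST/EiJ, so reads of both parental genomes were placed on the C57BL/6 reference build. There was 1 library for each of 2 labelled biological replicates and no other group. The labels describe the replicates as separate females, but both carry 1 donor identifier. If that stands for 1 mouse, the spread between the libraries holds no difference between animals.

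MicroRNA genes received 1593787 reads in replicate 1 and 2078101 in replicate 2. Levels are given as CPM, counts scaled to 1000000 gene-assigned reads, in which 1 read was worth 0.627 and 0.481. Reads that matched several places in the genome made up 75.4% and 77.6% of all reads and belong to no gene. The libraries are whole tissue, so blood left in the vessels is part of the sample. In such bulk RNA, fewer cells of a type and less RNA per cell cannot be told apart. Skeletal muscle microRNAs were present, as the labelled tissue requires. Mir206, the microRNA of skeletal muscle, had 32871 reads in replicate 1 and 139295 in replicate 2.

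Mir144 and Mir451a are made from a single primary transcript that the erythroid factor GATA1 switches on, and they are among the most abundant microRNAs of maturing red cells. Mir451a is processed in an unusual way. Its short hairpin is not cut by Dicer but is sliced by the Argonaute protein Ago2, so the mature strand runs into the loop. Mir486 is transcribed within Ank1, which encodes the membrane skeleton protein ankyrin 1, and is abundant in skeletal and heart muscle.

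Of the 4 members, Mir144, Mir451a and Mir451b were matched to sequences in RefSeq (GRCm38.p6). The mature sequences are shown because the seed, bases 2 to 8 and here in capitals, sets which messages a microRNA binds, and because they show whether reads of the members can be confused with each other.
miR-144-5p: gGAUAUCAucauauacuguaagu
miR-144-3p: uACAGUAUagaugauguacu
miR-451a: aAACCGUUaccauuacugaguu
miR-451b: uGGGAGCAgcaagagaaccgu
None of these 4 seeds was also the seed, at bases 2 to 8, of another of the 1738 mature sequences of the table. Over bases 2 to 7, miR-144-3p matched 1 other sequence, miR-101a-3p, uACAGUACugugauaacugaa, shown for its shared seed start. The longest stretch of a mature miR-144 arm in any other of the 1005 hairpins was 9 bases for the 5p arm and 10 for the 3p arm. For miR-451a it was 10 bases outside its own locus. Within this table, no other hairpin holds the whole sequence of any of these microRNAs on the strand of its gene.

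The hairpins are printed with the mature strands in capitals. They show the 2 arms of Mir144 and the single strand of Mir451a, which reaches from base 17 to base 38 of its hairpin, into the loop.
Mir144: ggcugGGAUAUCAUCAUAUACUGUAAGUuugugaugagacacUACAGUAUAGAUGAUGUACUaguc
Mir451a: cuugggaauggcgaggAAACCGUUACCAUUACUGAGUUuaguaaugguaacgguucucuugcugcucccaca
Mir451b: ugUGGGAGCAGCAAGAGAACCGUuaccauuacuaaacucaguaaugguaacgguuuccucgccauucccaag
The Mir451b hairpin is the exact reverse complement of the Mir451a hairpin. Because the stem is nearly symmetric, bases 2 to 17 of miR-451a, a stretch of 16 bases, are also found in the Mir451b hairpin. Over its full 22 bases miR-451a had 4 mismatches there.

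On the mm10 build, Mir144 (ENSMUSG00000065401.1) occupies chromosome 11, 78073005 to 78073070, on the plus strand. Mir451a (ENSMUSG00000070065.1) follows on the same strand after 99 bases, at 78073170 to 78073241. Mir451b (ENSMUSG00000104813.1) has the same ends on the minus strand. Apart from the overlap of Mir451a with Mir451b, none of them lies in another annotated gene. The end of Eral1, a mitochondrial ribosome assembly gene on the minus strand, is 134 bases past Mir451a. Mir486 (ENSMUSG00000070084.3) is on chromosome 8, 23142555 to 23142682, on the plus strand. It lay within 15 of the 17 annotated Ank1 transcripts and overlapped an exon of none, so its position is intronic. On the minus strand it overlaps Mir3107 (ENSMUSG00000106471.1, 23142573 to 23142662), which RefSeq also lists as mir-486b, and an intron of the antisense transcript Gm15816.

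**Figure D1:**
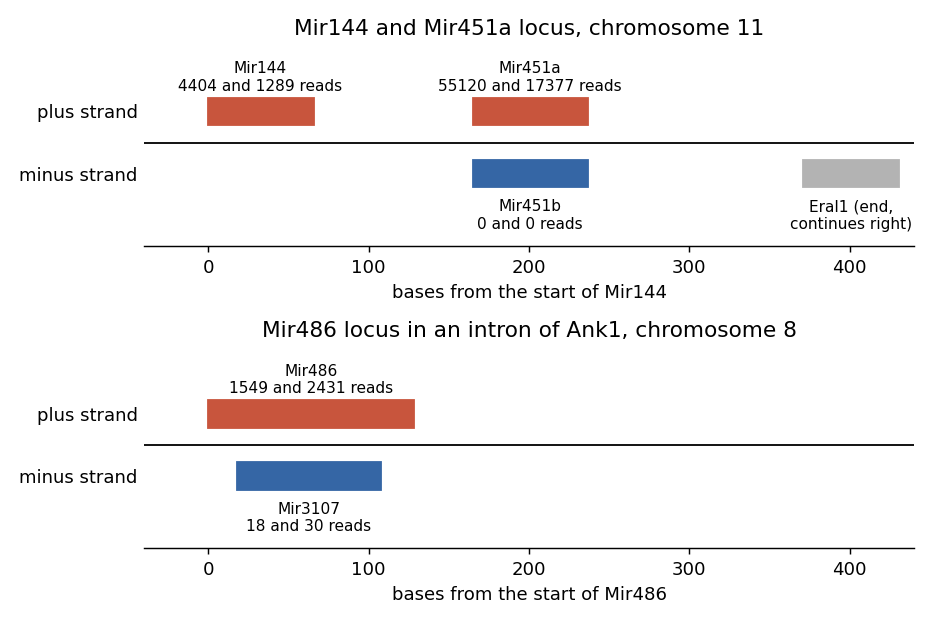
Map of the 2 loci, with bases from the start of Mir144 (top) or Mir486 (bottom) on the horizontal axis and genes drawn on their strand. Under each name stand the reads on the strand of the gene in replicate 1 and replicate 2. Mir451b had 0 reads where Mir451a had 55120 and 17377.

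Mir451a was by far the most counted member. It had 55120 reads in replicate 1, which was 34584 CPM or 3.46% of gene-assigned reads (exact 95% interval 3.43% to 3.49%). In replicate 2 it had 17377 reads, 8362 CPM or 0.836% (0.824% to 0.849%). Replicate 1 was the higher library, and the gene ranked 7th in it and 22nd in replicate 2. All ranks given here leave out multiply matched reads. The mean level was 21473 ± 18542 CPM (SD, n = 2), a spread nearly as large as the mean.

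Mir144 had 4404 reads in replicate 1 and 1289 in replicate 2, or 2763 and 620 CPM. It was again higher in replicate 1, where it ranked 38th, than in replicate 2, where it ranked 77th. Its mean was 1692 ± 1515 CPM (SD, n = 2). Counts are per hairpin, so the reads of its 5p and 3p arms are not told apart.

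The libraries were set against each other after TMM scaling, with a two-sided exact binomial test per gene and Benjamini-Hochberg adjustment over the 273 genes that had at least 10 reads in both. This test compares 2 libraries and not conditions, and its error is counting noise only. Mir451a was 3.95-fold lower in replicate 2 (95% counting interval 3.88 to 4.02), and Mir144 was 4.25-fold lower (4.00 to 4.53). Both passed. The test called 63.0% of genes in either direction and 29.7% lower in replicate 2, so passing it is common here, whereas 6.96% of genes were over 2-fold lower. In order of the ratio from the lowest, Mir144 stood 4th and Mir451a 6th of the 273.

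Neither gene passed when edgeR's exact test was run with the common dispersion of these 2 libraries, equal to a coefficient of variation of 0.335. Adjusted p was 0.212 for Mir144 and 0.230 for Mir451a, and 1.47% of genes passed. This dispersion contains the difference itself, so no replicate spread independent of the comparison exists.

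**Figure D2:**
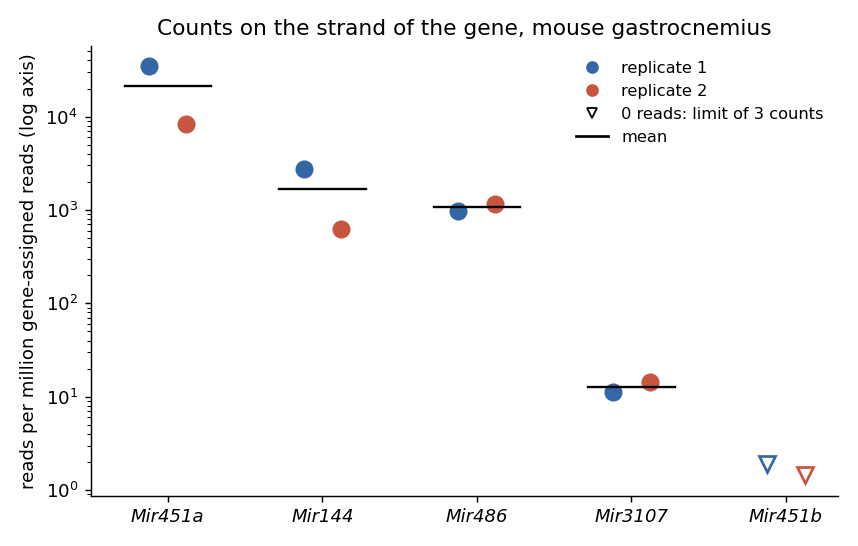
Level in CPM (log axis) of the members and of Mir3107, with replicate 1 in blue, replicate 2 in red and the mean as a bar. Mir451b had no reads, and its open triangles mark the limit that 3 counts set, 1.88 and 1.44 CPM.

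The level of Mir144 relative to Mir451a needs no scaling between libraries. Mir144 had 7.99 reads per 100 reads of Mir451a in replicate 1 (7.75 to 8.24) and 7.42 in replicate 2 (7.004 to 7.85). The ratio differed by -0.11 on the log2 scale, small beside the difference of each gene between the libraries. That difference reached an unadjusted p of 0.0238 in a two-sided Fisher's exact test of the reads, 1 of 4 ratios computed, which covers counting noise only. On the log2 scale the ratio was -3.65 and -3.75, with a mean of -3.70 ± 0.08 (SD, n = 2). Divided by the length of the annotated hairpins, 66 and 72 bases, the levels were 25.6 ± 23.0 CPM per base for Mir144 and 298 ± 258 for Mir451a. The size range of the libraries ended at 30 bases, below the length of either hairpin. Counts therefore need not rise with hairpin length, and the division does not make genes comparable. Different sequences join to adapters with different efficiency, so a count ratio does not give the ratio of molecules.

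Together Mir144 and Mir451a held 59524 gene-assigned reads in replicate 1, a share of 3.73% (3.71% to 3.76%), and 18666 in replicate 2, a share of 0.898% (0.885% to 0.911%). Once reads with several matches were counted in the denominator, the shares were 0.677% and 0.144%. Neither denominator brought the libraries together.

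No read was counted for Mir451b in either library, a result of 0 that leaves room for up to 3 reads, or 1.88 CPM in the first library and 1.44 CPM in the second. Mir451a was therefore at least 18373-fold higher than Mir451b in replicate 1 and at least 5792-fold higher in replicate 2. These limits, like all intervals here, cover counting error only. The 16-base stretch that both strands share, given above, is shorter than the mature strand.

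Strand decided whether Mir451a was seen at all. Counted without regard to strand, Mir451a, Mir451b and Mir486 each had 0 reads in both libraries, because a read inside a pair of overlapping genes is then left as ambiguous. Mir144, with no gene on its other strand, kept its 4404 and 1289 reads. The reads of Mir451a amounted to 10.8% of the ambiguous reads in replicate 1 and 2.89% in replicate 2. Over the whole annotation 32 pairs of microRNA genes overlap on opposite strands, and 20 of them had at least 100 reads in each library. In all 20 the strand with fewer reads held under 2% of the reads of the pair in both libraries, and in 14 it held none in either. Mir451a with Mir451b was among the 14. Pairs with fewer reads could differ from this. Mir24-1 with Mir3074-1 had 42 and 88 reads, of which the minor strand held 47.6% and 30.7%.

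Mir486 had 1549 reads in replicate 1 and 2431 in replicate 2, or 972 and 1170 CPM. The level was 1071 ± 140 CPM (SD, n = 2), far closer between the libraries than those of Mir144 and Mir451a. Mir486 was 1.26-fold higher in replicate 2 (1.18 to 1.34, adjusted p = 2.64e-12 in the exact binomial test), in a test that called 33.3% of genes higher. At the common dispersion its adjusted p with edgeR was 1. Per base of its 128-base annotated hairpin the level was 8.37 ± 1.09 CPM, with the limit given above for division by hairpin length.

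Mir3107, on the other strand of Mir486, had 18 and 30 reads, or 1.16 per 100 reads of Mir486 in replicate 1 (0.687 to 1.84) and 1.23 in replicate 2 (0.831 to 1.77). The minor strand was thus counted at this locus and held nearly the same low share in both libraries, whereas the minor strand of the Mir451a locus had no read. Mir3107 had a fold of 1.34 (0.723 to 2.55), which did not pass the exact binomial test (adjusted p = 0.488). As background, the hairpin at Mir486 is nearly palindromic and its strands are listed with the same main mature microRNA. A read that fits both strands matches several places and is in no gene's count. The level and the fold of Mir486 therefore cover only reads placed on 1 strand, and those of the mature microRNA may differ.

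The order of the members by counted reads differed between the libraries. Mir144 exceeded Mir486 in replicate 1, with 35.2 reads of Mir486 per 100 of Mir144 (33.2 to 37.3). In replicate 2 Mir486 exceeded Mir144, with 189 reads per 100 (176 to 202). Against Mir451a, Mir486 had 2.81 reads per 100 in replicate 1 (2.67 to 2.96) and 14.0 in replicate 2 (13.4 to 14.6). The log2 ratio of Mir486 over Mir451a was -5.15 and -2.84, a difference of 2.32, while that of Mir144 over Mir451a differed by -0.11. The reads of Mir486 placed on 1 strand thus did not move with those of Mir144 and Mir451a. By mean CPM of the counted reads the order was Mir451a, Mir144, Mir486 and Mir451b. The mean of Mir486 lay within the SD of Mir144, whose order with Mir486 reversed between the libraries. Reads of Mir486 that fit both strands are missing from this order, so it need not hold for the mature microRNAs.

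**Figure D3:**
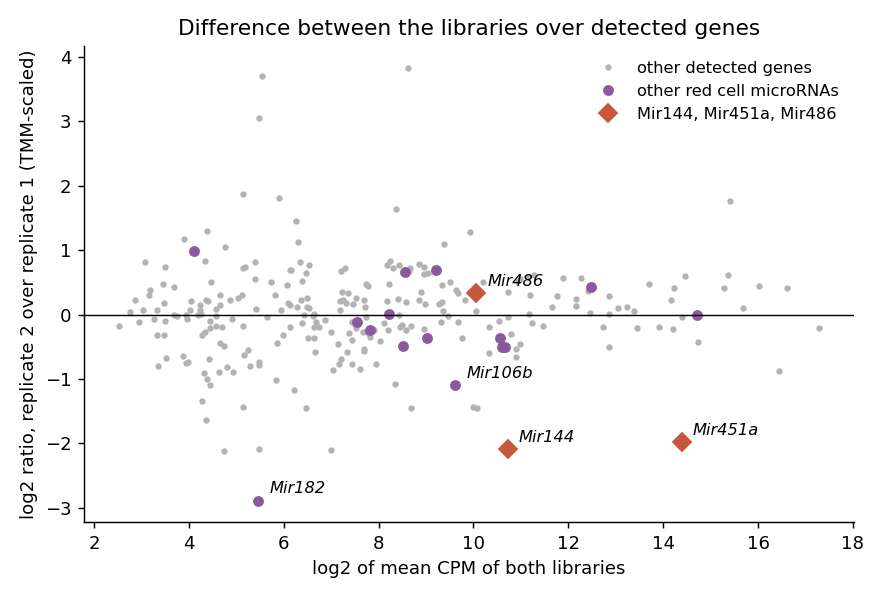
Log2 ratio of replicate 2 over replicate 1 against the log2 of mean CPM for the 273 genes with at least 10 reads in both libraries. Mir144 at -2.09 and Mir451a at -1.98 lie below nearly all genes, and Mir486 at 0.33 lies within the main cloud.

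In the order of mean CPM, Mir451a ranked 13th, between Mir30a and Mir127. Multiply matched reads are left out, so genes whose reads also fit another place can stand too low in this order. Mir144 ranked 50th, between Mir196a-2 and Mir337, and Mir486 ranked 61st, between Mir29c and Mir299a. Each of these neighbours lay within the SD of its member. Of the genes averaging 100 reads or more, Mir199b had the log2 ratio nearest to the mean of Mir144 and Mir451a, -2.03. Its ratio was -2.10 on 334 and 97 reads. The next were Mir138-1, Mir708, Mir29c and Mir338, with ratios from -1.45 to -1.44. Under that minimum of 100 reads, Mir138-2 (116 and 34 reads) had a ratio of -2.09 and Mir137 (70 and 20 reads) -2.12. The ratios nearest to that of Mir486 belonged to Mir320, Mir673, Mir337, Mirlet7a-2 and Mir154, all between 0.33 and 0.36. The likeness is the difference of 1 ratio over 2 libraries. Mir101a, which shares the seed start of miR-144-3p and was chosen after the sequences were read, had 503 and 369 reads and a fold of 0.589 (0.514 to 0.675).

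Other microRNAs described in mature red cells were counted as a list of 18 genes. All 18 had reads and 15 had at least 10 in both libraries. Of these, 8 were lower in replicate 2, 4 were higher and 3 did not pass, against 29.7% of all genes called lower and 33.3% called higher. The median log2 ratio of the 15 was -0.24, beside 0.02 over all 273 genes. With scaling by total reads, 9 were lower and 4 higher. With no filter on reads all 18 were tested, and 11 were lower, 3 higher and 4 did not pass. Over all 561 genes tested in that setting, 99 were lower and 81 higher. Of the 15 ratios, that of Mir182 alone was as low as those of Mir144 and Mir451a.

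Mir182, known from red cells and from sensory organs, had 125 and 21 reads and was 7.41-fold lower in replicate 2 (4.64 to 12.4). It was the 1 gene of the list that also passed at the common dispersion (edgeR's exact test, adjusted p = 0.0296). The other genes of its cluster, Mir183 (96 reads against 9) and Mir96 (12 against 0), were under the minimum in replicate 2. They were tested only with no filter on reads, as was Mir363 (11 against 5). Mir106b, of a cluster within Mcm7, was 2.14-fold lower (1.98 to 2.31) and its cluster neighbour Mir93 1.42-fold lower (1.34 to 1.49). The fold of Mir25, the third gene of that cluster, was 0.919 (0.789 to 1.07) and did not pass.

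Mir15a and Mir16-1, made from 1 transcript, were 1.43-fold (1.35 to 1.504) and 1.29-fold (1.23 to 1.36) lower. The most counted genes of the list did not follow. Mir22 had 43829 and 54548 reads and a fold of 1.00 (0.987 to 1.01), and Mir191 was 1.35-fold higher (1.31 to 1.39). Mir185 was 1.62-fold higher (1.48 to 1.77) and Mir92-1, the annotated symbol of the miR-92a-1 gene, 1.58-fold higher (1.42 to 1.77). Mir16-1 and Mir16-2, like Mir92-1 and Mir92-2, are listed with the same mature microRNA, so their counts hold only reads placed at 1 locus. All of these genes are also made in cells other than red cells.

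**Figure D4:**
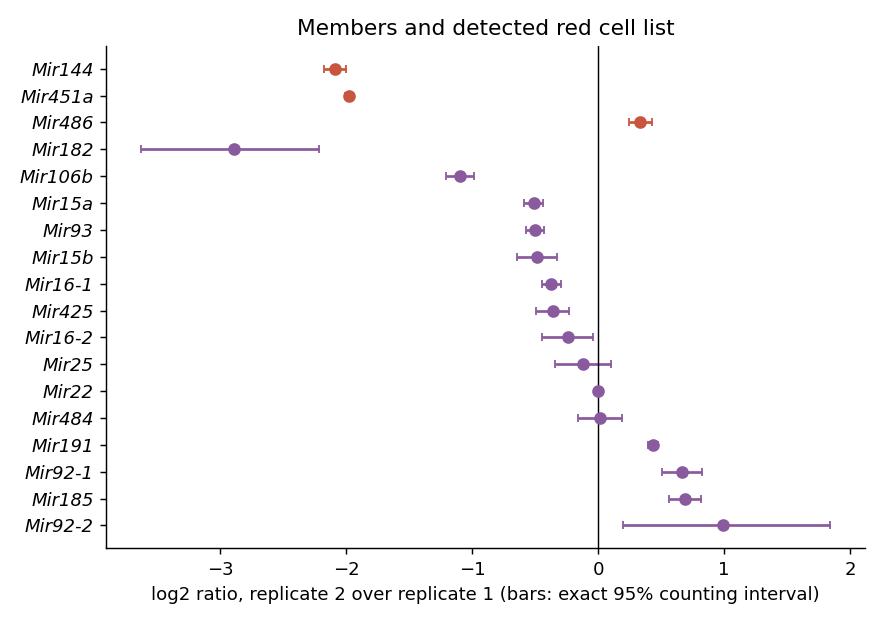
Log2 ratio of replicate 2 over replicate 1 with exact 95% counting intervals for Mir144, Mir451a and Mir486 (red) and the 15 tested genes of the red cell list (purple). Mir182 at -2.89 is the lowest and Mir106b at -1.10 the next of the list, while 4 genes lie clearly to the right of 0.

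Markers of other cells were called in both directions by the exact binomial test beside these results. That test called 29.7% of all genes lower and 33.3% higher, which is the background for the counts of these short lists. Of the 5 microRNAs known to fall as red cells mature, all were tested, 2 were higher in replicate 2, 1 was lower and 2 did not pass. Mir155 was 2.44-fold higher (2.27 to 2.63), Mir150 1.65-fold higher (1.48 to 1.84) and Mir223 2.01-fold lower (1.501 to 2.72). The leukocyte list shares these 3 genes and adds Mir142, which was 2.11-fold lower (1.87 to 2.38), and Mir142b with no reads. Of its 5 genes 4 were tested, and the list held 0.142% and 0.209% of reads in the replicates. Beside Mir486, the striated muscle list held 2.11% and 6.87%, mostly Mir206, with 3 genes higher, 0 lower and 3 not passing of 6 tested. These shares leave out multiply matched reads. Any read that fits both Mir1a-1 and Mir1a-2, or both Mir133a-1 and Mir133a-2, would be among those. Mir1a-1 had 32 and 24 reads and Mir133a-1 had 47 and 43, so the list shares do not give the whole of the muscle microRNAs. Mir499, which lies within the slow-fibre gene Myh7b, had 86 reads against 1527 in replicate 2, a 14.3-fold difference (11.5 to 17.9) and the highest ratio of the 273 genes. Mir208b, which lies within Myh7 of slow fibres, had 5 and 889 reads and was under the minimum for testing. At the common dispersion Mir499 alone of the 6 passed with edgeR (adjusted p = 0.000309). The smooth muscle list of vessel walls held 12.03% and 6.25%, with 2 of 3 genes tested and both lower. The endothelial list held 8.86% and 11.3%, with 1 gene higher and 2 not passing of 3 tested. At the common dispersion no gene of the maturation, leukocyte, smooth muscle or endothelial lists passed with edgeR, 0 of 5, 0 of 4, 0 of 2 and 0 of 3, and none had an unadjusted p under 0.05. The part of these cells in the differences of Mir144, Mir451a and Mir486 was not tested.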

How the data were processed

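Small RNA libraries of 2 gastrocnemius samples were analysed as 1 group. The authors deposited raw read counts for each microRNA gene (mm10, GENCODE M21, as their read-me states). Aligner and counter: not given in the sources used here. The tables carry no header. Layout and values show 4 rows of totals and, per gene, counts from either strand, from the strand of the gene (used here) and from its opposite. The rows of totals entered no library size or test.

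All 2202 identifiers matched GENCODE M21. Detection required 10 reads in both libraries. Scaling was TMM (edgeR 4.0.16, R 4.3.3), with DESeq2 1.42.0 size factors as an alternative. The two-sided exact binomial test was adjusted by Benjamini-Hochberg at 0.05, with the exact test of edgeR, run with the common dispersion, as an alternative. Ratios within a library have exact 95% intervals. Procedures were tested on simulated data. PCR copies cannot be recognised, so intervals cover counting error only.

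The members and lists were chosen with earlier results of these data known. Named were the members, genes on their other strand, neighbours in level, the 5 genes nearest in ratio (minimum mean 100 reads), and up to 4 of the most abundant or over 2-fold genes of each list. Mir1a-1, Mir16-1, Mir16-2, Mir25, Mir92-1, Mir92-2, Mir96, Mir101a, Mir133a-1, Mir133a-2, Mir183, Mir185 and Mir363 were named beyond that rule, after their values were seen. So were Mir24-1, Mir137, Mir138-2 and Mir3074-1. Alternatives were other scalings, read minimums, strand, denominators, and leaving out the most abundant gene or a replicate. Python 3.11.15, scipy 1.17.1 and pandas 2.3.3 were used.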

Additional observations from a re-analysis of the deposited data

Results flagged for a closer look

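Reads outside the gene counts were not used in the comparisons. Multiply matched reads came to 7195252 for replicate 1 and 10919725 for replicate 2, and any read that fits both strands at the Mir486 locus would be among them. Outside microRNA genes, 142257 and 232773 reads were placed at 1 locus. These are totals of whole libraries and hold no value for a single member.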

How the results depend on the processing

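The directions of Mir144, Mir451a and Mir486 between the libraries held under every alternative that gave a value, and their calls held under all but the common dispersion. There, with edgeR's exact test, the log2 ratios of -2.09 for Mir144, -1.98 for Mir451a and 0.33 for Mir486 no longer passed, and 4 genes were called in place of 172. That test adds the spread between these libraries to counting noise. At an unadjusted p under 0.05 it gave 19 genes. Under the other scalings, read minimums and removal of the most abundant gene, Mir144 was 4.30-fold to 4.49-fold lower and Mir451a 3.99-fold to 4.17-fold lower, and 152 to 180 genes were called. Without regard to strand the levels of Mir451a and Mir486 were 0, no fold could be had for either, and the share of Mir144 with Mir451a was 0.247%. With multiply matched reads in the denominator all levels fell alike, to 300.1 CPM for Mir144, 3804 for Mir451a and 182 for Mir486. Without the most abundant gene they were 2035, 25819 and 1272 CPM. Leaving out a replicate leaves 1 library. Levels then ranged from 620 to 2763 CPM for Mir144, 8362 to 34584 for Mir451a and 972 to 1170 for Mir486, and the share from 0.898% to 3.73%. The log2 ratio of Mir144 over Mir451a ranged from -3.75 to -3.65 and that of Mir486 over Mir451a from -5.15 to -2.84. No paired analysis was possible because the design has 1 group.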
